A study of Rattus norvegicus with 19 samples.

Results

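Hba-a1, Hbb, Hbb-b1, Hbb-bs, Slc4a1 and Alas2 are genes of red blood cells, measured here in RNA from whole left ventricles of rats. Hba-a1 encodes an α chain of hemoglobin and Hbb, Hbb-b1 and Hbb-bs encode β chains. Slc4a1 encodes band 3, the anion exchanger of the red cell membrane, and Alas2 encodes the erythroid form of the first enzyme of heme synthesis. The genes were chosen on values measured in these same libraries: they were named because they were higher in hearts given EMPA than in untreated diseased hearts, and Slc4a1 also because it was higher under the drug combination. They are 6 of the 17455 gene symbols in the count tables, and all 6 were among the 12388 genes that passed the filter on low counts. The tables identify genes by symbol alone.

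Red cells form in the bone marrow, lose their nucleus and enter the blood as reticulocytes, which still hold RNA for hemoglobin and heme synthesis for a short time. Each hemoglobin molecule joins α and β chains with heme, and band 3 ties the cell membrane to the spectrin skeleton beneath it. Heart tissue contains blood in its vessels, and heart muscle makes its own heme through the housekeeping enzyme Alas1.

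The study used a rat model of heart failure with preserved ejection fraction (HFpEF), induced by a high-fat diet together with L-NAME, which blocks nitric oxide synthesis. Empagliflozin (EMPA), an inhibitor of the glucose transporter SGLT2, and pirfenidone (PFD), an antifibrotic drug, were given alone or together to diseased animals. RNA of the left ventricle was sequenced in 19 libraries of 7 groups. All animals were Sprague-Dawley rats labelled as wildtype males, 24 weeks old at the start.

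Control 5w animals (3 libraries) received neither the high-fat diet nor L-NAME and were sampled at week 5. HFpEF animals (3 libraries) received L-NAME at 0.5 g/L in the drinking water and a diet with 60% of its energy as fat, and were also sampled at week 5. Control 9w animals (3 libraries) were the corresponding controls at week 9. The untreated group (3 libraries) had L-NAME and the high-fat diet and was given saline (PBS) for 4 weeks before sampling at week 9. The EMPA group (2 libraries) had the same induction and received EMPA at 0.35 g/kg per day for those 4 weeks. PFD animals (2 libraries) received pirfenidone at 0.3 g/kg per day instead. The EMPA + PFD group (3 libraries) received both drugs at these doses. As a model, these groups are limited by the combined induction, which does not separate diet from L-NAME, by 2 or 3 animals per group, and by bulk RNA of the whole ventricle, which mixes muscle, vessels and the blood within them.

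Total counts were 11628931, 13017754 and 12616559 in control 5w replicates 1 to 3, and 12205327, 9386791 and 10857636 in HFpEF. They were 8141045, 7803050 and 9409670 in control 9w and 9951011, 10142209 and 9640990 in untreated. EMPA libraries held 7430539 and 8061054 counts and PFD libraries 9879949 and 10366167. EMPA + PFD libraries held 9360259, 10318343 and 10693001 counts. Levels are given as CPM, the counts of a gene per 1000000 counts of its library after TMM scaling, in replicate order.

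A pair of genes went against the labels. Eif2s3y, a Y-linked gene, had 0 counts in HFpEF replicates 1 and 3, in all 3 untreated libraries and in both PFD libraries, although all animals are labelled male. A count of 0 allows at most 0.311 counts per 1000000, before TMM scaling, in the shallowest of these 7 libraries. The other 12 libraries held 613 to 1321 Eif2s3y counts. RT1-CE16, a major histocompatibility gene, had 0 to 3 counts in 8 libraries, those of EMPA, HFpEF and control 5w, and 308 to 922 counts in the other 11. EMPA and untreated libraries therefore differed in both genes, and the difference they mark cannot be told apart from EMPA treatment. EMPA + PFD and untreated libraries differed in Eif2s3y, with 825, 906 and 999 counts against 0 in each, and this difference cannot be told apart from the combination. Untreated and PFD libraries did not differ in this way, whereas untreated and control 9w differed in Eif2s3y, and untreated and HFpEF in RT1-CE16. HFpEF replicates 1 and 3 differed in Eif2s3y from the control 5w libraries, which had 1204, 1321 and 1211 counts, and HFpEF replicate 2, with 855 counts, differed in it from the untreated libraries. Comparisons of HFpEF with either group, and the difference between the weeks, hold these differences too. Control 5w and control 9w also differed in RT1-CE16, so that week and this difference cannot be told apart. The cardiomyocyte list, 8 genes with Myh6 as the most abundant, was detected in every library, which matches the labelled tissue. Its summed level was lowest in HFpEF replicate 1, at 12238 CPM, and in untreated replicate 2, at 19968 CPM, against 24840 to 95360 CPM elsewhere.

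Hbb, a β chain gene, was at 1581, 988 and 1557 CPM in control 5w and at 1601, 1269 and 3531 CPM in HFpEF. In control 9w its level was 1404, 1688 and 1077 CPM, and in untreated hearts 213, 171 and 279 CPM. Hbb was at 2033 and 391 CPM under EMPA, at 651 and 776 CPM under PFD, and at 105, 417 and 176 CPM under EMPA + PFD. Untreated and EMPA + PFD hearts were the low groups, EMPA held a high and a low library, and HFpEF replicate 3 was above all other libraries.

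Hba-a1, the α chain gene, was at 41.0, 12.0 and 14.6 CPM in control 5w and at 93.6, 95.4 and 247 CPM in HFpEF. It was at 50.6, 58.2 and 42.4 CPM in control 9w and at 7.17, 6.66 and 11.4 CPM in untreated hearts. Under EMPA it was at 116 and 19.8 CPM, under PFD at 21.4 and 25.0 CPM, and under EMPA + PFD at 4.02, 14.2 and 5.54 CPM. All HFpEF libraries lay above all control 5w libraries, and all untreated libraries lay below every control.

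Hbb-b1, another β chain gene, was at 31.0, 9.85 and 16.7 CPM in control 5w, 49.6, 37.4 and 84.9 CPM in HFpEF and 43.8, 46.7 and 27.6 CPM in control 9w. In untreated hearts Hbb-b1 was at 6.54, 4.95 and 8.85 CPM, and under EMPA at 58.3 and 8.14 CPM. PFD hearts had 20.0 and 20.9 CPM of it and EMPA + PFD hearts 2.72, 12.3 and 6.69 CPM. Its lower EMPA library lay within the untreated range.

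Hbb-bs, the remaining β chain gene, was at 87.0, 26.6 and 47.3 CPM in control 5w, 112, 84.1 and 201 CPM in HFpEF and 92.2, 95.2 and 70.2 CPM in control 9w. Untreated hearts had 9.07, 8.28 and 13.3 CPM of Hbb-bs, and EMPA hearts 158 and 32.8 CPM. It was at 42.4 and 44.6 CPM under PFD and at 6.03, 28.6 and 10.7 CPM under EMPA + PFD. The PFD libraries lay close together and above every untreated and EMPA + PFD library.

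Alas2, which starts heme synthesis in red cell precursors, was at 39.1, 14.4 and 26.8 CPM in control 5w, 38.8, 22.4 and 64.6 CPM in HFpEF and 27.2, 30.0 and 26.0 CPM in control 9w. Untreated hearts had 4.43, 2.68 and 3.90 CPM of Alas2, and EMPA hearts 55.1 and 10.8 CPM. It was at 14.1 and 16.0 CPM under PFD and at 2.13, 10.2 and 3.66 CPM under EMPA + PFD. Alas2 thus followed the hemoglobin genes from library to library, with the low levels again in untreated and EMPA + PFD hearts.

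Slc4a1, the band 3 gene, was at 40.1, 18.5 and 23.4 CPM in control 5w, 15.4, 11.1 and 41.3 CPM in HFpEF and 9.48, 10.5 and 7.68 CPM in control 9w. Untreated hearts had 2.22, 0.731 and 3.06 CPM of Slc4a1, from 21, 9 and 29 counts, and EMPA hearts 48.3 and 16.0 CPM. It was at 4.82 and 20.3 CPM under PFD and at 30.0, 26.7 and 21.8 CPM under EMPA + PFD. Unlike the hemoglobin genes and Alas2, it was high in every EMPA + PFD library, and its PFD libraries lay far apart.

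**Figure D1:**
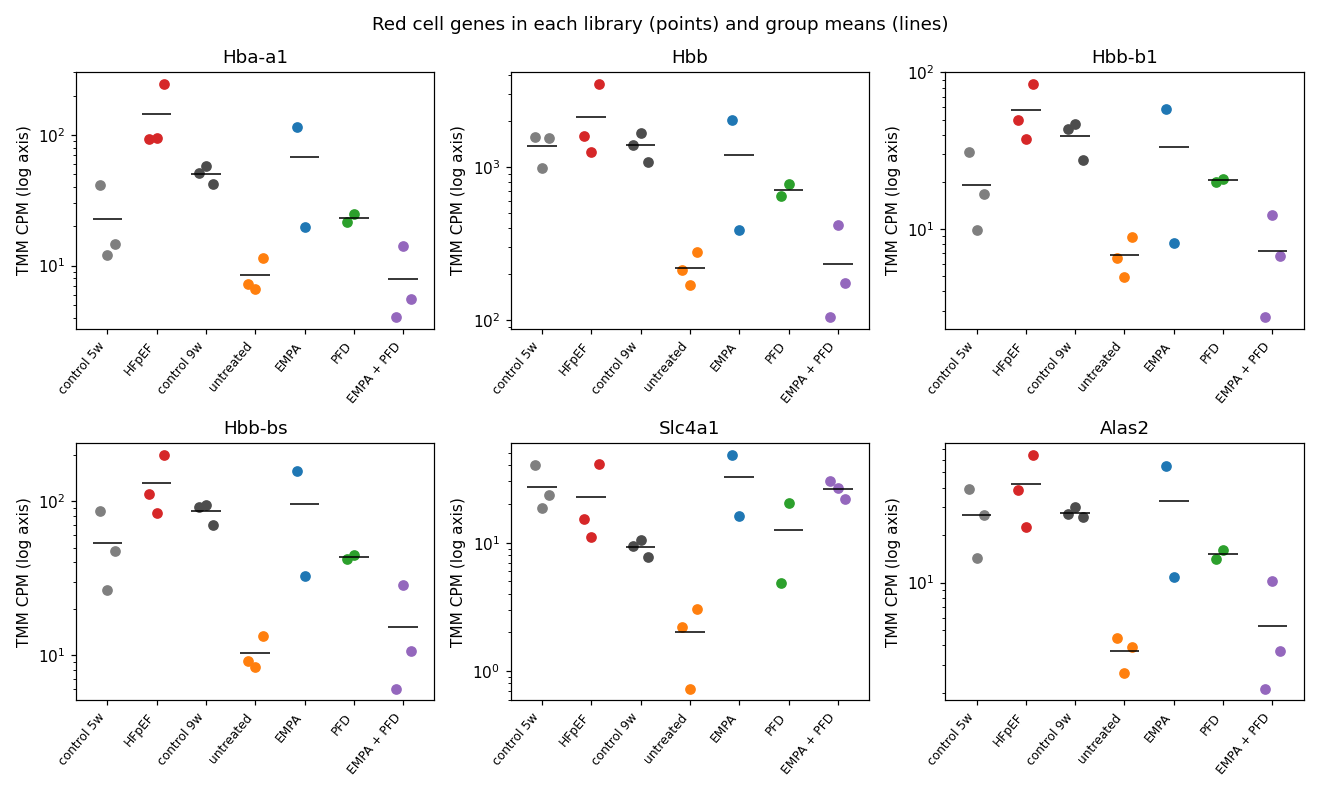
Each panel plots 1 gene, with each point a library on a logarithmic axis of CPM and each line a group mean. Untreated hearts are low in all panels, whereas EMPA + PFD hearts are low for the hemoglobin genes and Alas2 but at 21.8 to 30.0 CPM for Slc4a1.

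The summed level of the 4 hemoglobin genes averaged 2469 ± 1394 CPM in HFpEF (SD, n = 3), 1565 ± 336 in control 9w (n = 3), 1471 ± 380 in control 5w (n = 3) and 1408 ± 1352 under EMPA (n = 2). Next in this order of levels came PFD, at 801 ± 92.8 CPM (n = 2), then EMPA + PFD at 263 ± 186 CPM (n = 3) and untreated at 246 ± 61.7 CPM (n = 3). Libraries of neighbouring groups in the order overlapped except between PFD and EMPA + PFD. EMPA replicate 1 was 5.23-fold above EMPA replicate 2, and the highest EMPA + PFD library was 4.03-fold above the lowest. For Slc4a1 the order was EMPA, control 5w, EMPA + PFD, HFpEF, PFD, control 9w and untreated, and only control 9w and untreated, among neighbours, did not overlap. In bulk RNA, fewer red cells or reticulocytes and less RNA per cell cannot be told apart.

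As a share of all counts, the 4 hemoglobin genes made up 0.419% of HFpEF replicate 3, with a Clopper-Pearson 95% interval of 0.415% to 0.423%, and 0.0106% of EMPA + PFD replicate 1, with an interval of 0.00995% to 0.0113%. In EMPA replicate 1 the share was 0.239% (0.235% to 0.243%), and in replicate 2 it was 0.0462% (0.0447% to 0.0477%). Untreated replicate 1 had 0.0225% (0.0215% to 0.0234%). These intervals cover counting error only, and the EMPA libraries differed by far more than their intervals.

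**Figure D2:**
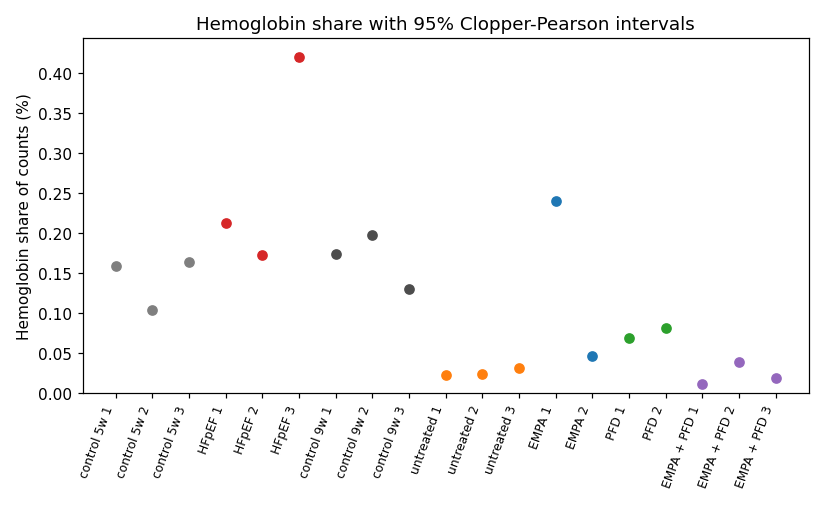
Each point is the share of a library's counts held by Hba-a1, Hbb, Hbb-b1 and Hbb-bs, in percent, with its 95% Clopper-Pearson interval as a bar that is often smaller than the point. The 3 untreated libraries sit between 0.0225% and 0.0308%, and EMPA replicates 1 and 2 are at 0.239% and 0.0462%.

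Hbb held 85.4% to 95.3% of the hemoglobin counts of a library, so that the summed level is mostly that of Hbb. The sum holds the 4 chosen symbols and leaves out LOC100134871, a further β globin gene described with the genes most like hemoglobin. With LOC100134871 counted in, Hbb held 58.0% to 82.5%, so that shares and ratios to hemoglobin depend on this choice. Hba-a1 had 23.6, 11.6 and 8.90 counts per 1000 hemoglobin counts in control 5w and 50.4, 64.2 and 60.7 in HFpEF, without overlap. The α and β genes have near-identical copies, and how reads were divided among copies is uncertain, since the strand setting and overlap mode of the counting are not stated. The symbol Hba-a2, a copy beside Hba-a1, had at most 2 counts in any library.

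The week 5 comparison asked what the induction did early. Against control 5w, 1 of the 6 genes was called in HFpEF (adjusted p under 0.05 and at least a 2-fold difference), beside 8.69% of all tested genes. Hba-a1 was 6.47-fold higher in HFpEF (log2 fold change 2.69, SE 0.64, Benjamini-Hochberg adjusted p = 0.0117 in edgeR's quasi-likelihood test), with 3 of 3 HFpEF libraries above every control. Hbb-b1 had a log2 fold change of 1.58 (adjusted p = 0.0745 in the same edgeR quasi-likelihood test, Benjamini-Hochberg) and did not pass; for both genes the groups did not overlap, as was so for 37.7% of all tested genes. Hbb-bs, Alas2 and Hbb had log2 fold changes of 1.30, 0.65 and 0.63, and Slc4a1 −0.28, none of them called. DESeq2 called 2 of the 6 genes, and the fit to these groups alone called 0. With HFpEF replicate 2, which has Eif2s3y counts, as the single HFpEF library, Hba-a1 was at 2.09 and Hbb-b1 at 0.97. Hbb-bs was then at 0.65, Hbb at −0.12, Alas2 at −0.26 and Slc4a1 at −1.30.

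Between the controls, which differ in week, edgeR called 0 of the 6 genes, beside 14.7% of all tested genes, and DESeq2 called 1. At an unadjusted p under 0.05 in edgeR's test stood 1 of the 6, as did 5626 of the 12388 tested genes. Slc4a1 came nearest, at a log2 fold change of −1.57 in control 9w against control 5w (SE 0.59, Benjamini-Hochberg adjusted p = 0.0510 in edgeR's quasi-likelihood test), and its libraries did not overlap, as was so for 49.4% of all tested genes. Hba-a1 had the opposite sign, 1.17, and Hbb and Alas2 were at 0.01 and 0.05. Without control 5w replicate 1, 1 gene was called: Hba-a1, at a log2 fold change of 1.93.

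The untreated group sets the reference of the values on which the genes were chosen, and every comparison with it shares those 3 libraries. Low values in untreated hearts were thus favoured by the choice, and the counts of calls below are not independent support for them. Against HFpEF at week 5, 5 of the 6 genes were called lower in untreated hearts, beside 0.194% of all tested genes called in either direction. Hba-a1 was 17.3-fold lower (log2 fold change −4.11, SE 0.69, Benjamini-Hochberg adjusted p = 0.0328 in edgeR's quasi-likelihood test). The other called genes were Hbb-bs at −3.70, Slc4a1 and Alas2 at −3.52 each, and Hbb at −3.27, and Hbb-b1 was at −3.08 without passing. All untreated libraries lay below all HFpEF libraries for all 6 genes, and 19.1% of all tested genes did not overlap between these groups in either direction. The number of calls depended on single libraries: it was 0 without HFpEF replicate 1, 0 without HFpEF replicate 3, 0 without untreated replicate 1 and 0 without untreated replicate 3, and it was 6 without HFpEF replicate 2 and 6 without untreated replicate 2. It was 2 with HFpEF replicate 1 and untreated replicate 2, the libraries lowest in cardiomyocyte genes, both left out, although the log2 fold changes were then −4.20 for Hba-a1, −3.67 for Hbb-bs, −3.38 for Alas2, −3.31 for Slc4a1 and −3.29 for Hbb. It was 0 with a replicate block or in a fit to these groups alone. DESeq2 and upper quartile scaling called 6 each. With each library left out in turn, log2 fold changes ran from −4.38 to −3.49 for Hba-a1 and −3.94 to −3.27 for Hbb-bs. They ran from −3.82 to −3.07 for Alas2, −3.97 to −2.76 for Slc4a1 and −3.54 to −2.70 for Hbb. With the replicate block Hba-a1 was at −4.10 and Hbb at −3.24. Over all tested genes, calls ran from 4 without HFpEF replicate 1 to 933 without untreated replicate 2, and DESeq2 called 441.

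Against control 9w, the controls of the same week, 3 of the 6 genes were called lower in untreated hearts, beside 0.912% of all tested genes. Hbb-bs was 8.42-fold lower (log2 fold change −3.07, SE 0.63, Benjamini-Hochberg adjusted p = 0.0284 in edgeR's quasi-likelihood test), Alas2 was at −2.92 and Hbb at −2.65. Hba-a1 at −2.59, Hbb-b1 at −2.54 and Slc4a1 at −2.23 were not called. For all 6 genes the untreated libraries lay below every control 9w library, and 23.0% of all tested genes did not overlap between these groups in either direction. DESeq2 called all 6, whereas edgeR called 0 without control 9w replicate 1, 0 without control 9w replicate 2, 0 without untreated replicate 1, 0 without untreated replicate 3 and 0 with a replicate block. With each library left out in turn, log2 fold changes ran from −3.30 to −2.94 for Hbb-bs, −3.08 to −2.73 for Alas2 and −2.86 to −2.49 for Hbb. With the block these genes were at −3.09, −2.96 and −2.70. Over all tested genes, calls ran from 7 without control 9w replicate 2 to 413 without untreated replicate 2.

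The difference between diseased and control hearts was also set against itself between the weeks, as the log2 difference of untreated from control 9w minus that of HFpEF from control 5w. Its week 9 side holds the untreated libraries whose low values entered the choice of the genes, so that negative values were favoured by the choice, and the values are a description. Hba-a1 was at −5.28 (SE 0.92), Hbb-bs at −4.38, Hbb-b1 at −4.12, Alas2 at −3.57, Hbb at −3.29 and Slc4a1 at −1.95. In the model of all genes 5 of the 6, all but Slc4a1, were past the threshold, as were 12.0% of all tested genes, and nothing is read from that count. This comparison was added after the data were seen. Diseased hearts of week 9, unlike those of week 5, had also been given PBS for 4 weeks.

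In PFD against untreated hearts, edgeR called 0 of the 6 genes, beside 0.00807% of all tested genes, and DESeq2 called 0. At an unadjusted p under 0.05 in edgeR's test stood 5 of the 6, as did 646 of the 12388 tested genes. For all 6 genes both PFD libraries lay above all untreated libraries, as did 24.2% of all tested genes in either direction. The log2 fold changes ran from 1.47 for Hba-a1 to 2.68 for Slc4a1, each with a Benjamini-Hochberg adjusted p of 0.786 in edgeR's quasi-likelihood test. Slc4a1 was at 1.30 without PFD replicate 2 and at 3.37 without PFD replicate 1. These values share the untreated libraries with the choice of the genes.

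EMPA against untreated is the comparison on which the genes were chosen, and its values are a description. For 5 of the 6 genes both EMPA libraries lay above all untreated libraries, while 23.7% of all tested genes did not overlap between these groups in either direction and 0.0404% were called. Slc4a1 had a log2 fold change of 4.03, Hbb-bs 3.23, Alas2 3.17, Hba-a1 3.01, Hbb 2.46 and Hbb-b1 2.29. Without EMPA replicate 1 these were 3.03, 1.69, 1.57, 1.24, 0.83 and 0.27, and without EMPA replicate 2 they were 4.62, 3.95, 3.91, 3.78, 3.20 and 3.11. The size for the hemoglobin genes and Alas2 thus rested largely on EMPA replicate 1, while Slc4a1 was well above untreated in either library.

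The neutrophil list, 13 genes of which 7 were tested, was also high in EMPA replicate 1. Its summed level was 75.2 and 26.6 CPM in EMPA, against 21.0, 29.6 and 28.6 CPM in untreated, 39.8 and 9.46 CPM in PFD and 4.85, 13.2 and 14.1 CPM in EMPA + PFD. It was 15.1, 17.5 and 23.8 CPM in control 5w, 35.9, 19.7 and 28.3 CPM in HFpEF and 17.8, 25.7 and 15.9 CPM in control 9w. S100a9, a calcium-binding protein of neutrophils and its most abundant gene, was at 38.8 and 12.4 CPM in EMPA, while the granule genes Mpo and Np4 had at most 1 and 0 counts. EMPA replicate 1 was the highest library of the series for both the neutrophil list and S100a9, and the part of blood cells other than red cells in the result was not tested.

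EMPA + PFD against untreated also entered the choice, through Slc4a1, and its values are a description. Slc4a1 alone of the 6 genes had all EMPA + PFD libraries above all untreated libraries, while 37.4% of all tested genes did not overlap between these groups in either direction and 3.82% were called. Its log2 fold change was 3.74, from 3.30 to 4.21 when any single library of these groups was left out. Hbb-bs was at 0.56, Alas2 at 0.54, Hbb-b1 at 0.10, Hbb at 0.07 (−0.03 under upper quartile scaling) and Hba-a1 at −0.08. Without EMPA + PFD replicate 2, the library with the most hemoglobin in its group, Hbb-bs was at −0.27 and Alas2 at −0.31, Hbb at −0.64, Hbb-b1 at −0.49 and Hba-a1 at −0.79.

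The ratio of Slc4a1 to hemoglobin in a library uses the same EMPA + PFD values on which Slc4a1 was chosen, and is a description. By its own level, Slc4a1 in EMPA + PFD, at 21.8 to 30.0 CPM, lay inside the range of control 5w, 18.5 to 40.1 CPM, and of EMPA, 16.0 to 48.3 CPM. Slc4a1 had 256, 56.4 and 110 counts per 1000 hemoglobin counts in EMPA + PFD, against 9.39, 3.84 and 9.78 in untreated, 20.4 and 35.5 in EMPA and 6.56 and 23.4 in PFD. The ratio was 23.1, 17.9 and 14.3 in control 5w, 8.27, 7.47 and 10.2 in HFpEF and 5.96, 5.54 and 6.31 in control 9w. Each EMPA + PFD library lay above all 16 other libraries, which ran from 3.84 to 35.5. With LOC100134871 counted as hemoglobin, Slc4a1 had 190, 40.6 and 80.1 in EMPA + PFD and 2.59 to 25.1 in the other 16. Alas2 had 18.1, 21.5 and 18.4 counts per 1000 hemoglobin counts in EMPA + PFD, inside the range of 12.5 to 23.9 of the other 16 libraries.

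**Figure D3:**
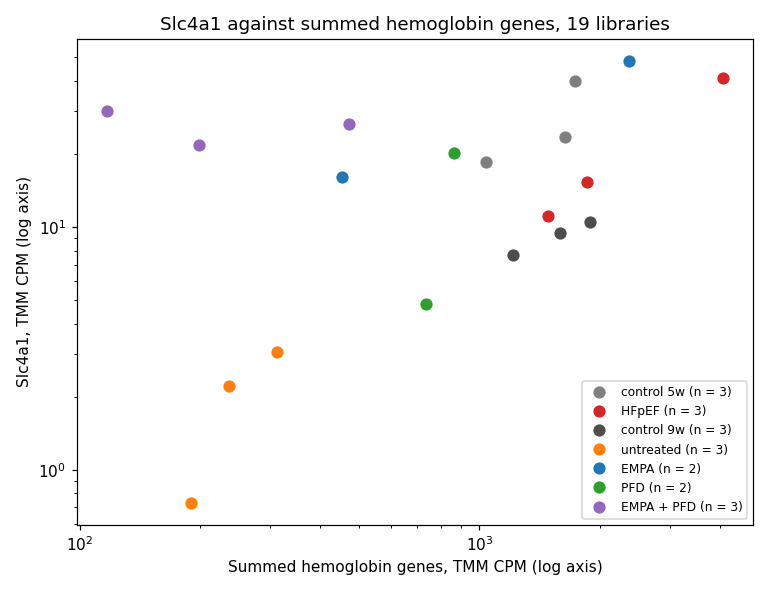
Each point is a library, with the summed level of the 4 hemoglobin genes on the horizontal axis and Slc4a1 on the vertical axis, both in CPM on logarithmic axes. The 3 EMPA + PFD libraries sit at 21.8 to 30.0 CPM of Slc4a1 with 117 to 472 CPM of hemoglobin.

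Across the 19 libraries, the log2 level of Slc4a1 had a Pearson r of 0.45 with that of summed hemoglobin, and r was 0.83 over the 16 libraries outside EMPA + PFD. Alas2 had an r of 0.98 with summed hemoglobin over all 19. The hemoglobin genes had r of 0.894 to 0.973 with each other. The group left out for the second r of Slc4a1 is a group on which it was chosen, so the rise of r follows in part from that choice. These are descriptions: the genes of a pair share each library and its depth scaling, and the libraries fall into groups.

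Genes most like the summed hemoglobin level among all tested genes were Lgals5 (r = 0.963, n = 19 libraries), LOC100134871 (0.951), Ahsp (0.934), Myo5c (0.925) and Mkrn1 (0.896). Lgals5 averaged 17.6 CPM in HFpEF, 2.04 in untreated, 18.2 in EMPA and 2.61 in EMPA + PFD. For Alas2 the nearest genes were Lgals5 (0.964), LOC100134871 (0.957), Ahsp (0.957), Myo5c (0.920) and Add2 (0.919). For Slc4a1 they were Washc3 (0.760), Fam174a (0.724), Rhd (0.722), Smyd5 (0.710) and Cox16 (0.703), all further from it than the neighbours of hemoglobin were. Rhd, which encodes a blood group antigen carrier, had 5, 10 and 5 counts in EMPA + PFD, 0, 1 and 3 counts in untreated and 63 and 12 counts in EMPA.

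In the GRCr8 annotation no gene overlapped Slc4a1. Of its neighbours, Ubtf averaged 168 CPM in untreated and 159 CPM in EMPA + PFD hearts, Rundc3a 2.61 and 2.84 CPM, and Slc25a39 122 and 152 CPM. None of these differed between the groups as Slc4a1 did.

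LOC100134871, a β globin gene named Hbbl1 in the GRCr8 table, was at 560, 178 and 252 CPM in control 5w, 866, 548 and 979 CPM in HFpEF and 638, 748 and 478 CPM in control 9w. Untreated hearts had 86.7, 91.7 and 122 CPM of LOC100134871 and EMPA hearts 1138 and 187 CPM. It was at 272 and 263 CPM under PFD and at 40.4, 185 and 74.1 CPM under EMPA + PFD. Ahsp, the chaperone that holds free α chains, had 0, 2 and 1 counts in untreated, 0, 10 and 0 in EMPA + PFD and 76 and 9 in EMPA. Both genes were low in untreated hearts and higher in EMPA replicate 1 than in replicate 2, and since both are among the genes picked above for their likeness to hemoglobin, this adds no independent support.

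Other genes of red cells were taken from 6 lists of 90 genes, of which 72 were in the tables and 58 were tested. The lists cover other globin genes, heme synthesis, the red cell membrane and skeleton, erythroid transcription and receptors, red cell enzymes and maturation, and the clearance of hemoglobin and iron. Many of them are also active in heart muscle or vessels. The genes of each list with the highest mean level were LOC100134871, Alas1, Cd59, Tfrc, Gpx1 and Fth1.

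In HFpEF against control 5w, 2 of the 58 genes rose and 7 fell, beside 8.69% of all tested genes called. The median log2 fold change was 0.10 against 0.02 over all tested genes. Of the 14 heme synthesis genes 4 fell, among them Alas1, with a log2 fold change of −1.62, and Uros, with −1.47. Of the 13 tested membrane and skeleton genes, Sptb (β spectrin, −2.07), Xk (−2.02) and Ank1 (ankyrin, −1.73) fell, and 2 rose. Slc14a1, a urea transporter, was among the latter, going from 0, 3 and 1 counts to 16, 13 and 14. In the other globin (2 tested), transcription (9), enzyme (9) and clearance (11) lists edgeR called 0, and over all lists 22 of the 58 genes had an unadjusted p under 0.05, as did 4436 of the 12388 tested genes. Alas1 was at 479, 217 and 230 CPM in control 5w and at 78.9, 54.2 and 167 CPM in HFpEF, a direction opposite to that of Hba-a1. Cardiomyocyte genes were lower in the same comparison, with 2 of 8 called (Actc1 and Ryr2, the latter at −1.24) and a median of −1.13, and their part in these values was not tested.

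Between the controls, 4 of the 58 genes were higher and 9 lower at week 9, with a median log2 fold change of −0.17 against −0.04 over all tested genes. Over all tested genes 14.7% were called, and at an unadjusted p under 0.05 stood 27 of the 58 and 5626 of the 12388. Slc40a1, the iron exporter ferroportin, was lower, with a log2 fold change of −1.88. Tal1 (1.46) and Epor (1.35), the erythropoietin receptor, rose. Slc14a1 also rose, to 11, 12 and 7 counts.

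In untreated hearts against HFpEF, 1 of the 58 genes, Rhd, was lower, beside 0.194% of all tested genes called. The median log2 fold change over the 58 was −0.13 against −0.01 over all tested genes. Rhd had 0, 1 and 3 counts in untreated and 63, 13 and 59 counts in HFpEF. In untreated hearts against control 9w, 4 of the 58 genes were called, beside 0.912% of all tested genes. Among the 4, LOC100134871 (−2.63) and Rhd were lower and Slc40a1 (1.33) was higher. The median over the 58 was −0.03 against 0.01 over all tested genes. The globin gene and Rhd moved the same way as the hemoglobin genes, and Slc40a1 moved the other way.

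For the difference of diseased from control hearts between the weeks, 9 of the 58 genes had positive and 9 negative called values. Over all tested genes 12.0% were called. The median over the 58 was −0.07 against −0.02 over all tested genes. Negative values belonged, among others, to Ahsp, LOC100134871 (−3.91), Add2 (−3.17), Slc14a1, Rhd, Hemgn (−3.28), the erythroid transcription factor Nfe2 (−3.07) and Car2 (−1.30). Positive values belonged to 5 heme synthesis genes, among them Alas1 (2.62) and Uros (2.39), to 3 membrane and skeleton genes, and to Slc40a1 (1.72). Cardiomyocyte genes differed along with these: 2 of 8, Actc1 (2.65) and Ryr2 (1.48), had positive called values, and their part was not tested. The summed cardiomyocyte level was 85172, 34643 and 38744 CPM in control 5w, 12238, 24840 and 36328 CPM in HFpEF and 37122, 44703 and 39839 CPM in control 9w.

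Under PFD, edgeR called 0 of the 58 genes against untreated, with 5 at an unadjusted p under 0.05 (646 of the 12388 tested genes) and a median log2 fold change of 0.13 against −0.02 over all tested genes. Under EMPA it called 0 as well, with 15 at an unadjusted p under 0.05 (1069 of 12388) and a median of 0.23 against 0.01, while DESeq2 called 5 and edgeR called 4 without EMPA replicate 2. Over all tested genes, 0.00807% were called under PFD and 0.0404% under EMPA. Both comparisons share the untreated libraries.

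Under EMPA + PFD, 4 of the 58 genes rose against untreated and 0 fell, beside 3.82% of all tested genes called. The median log2 fold change over the 58 was 0.31 against −0.03 over all tested genes, and DESeq2 called 8 of the 58. At an unadjusted p under 0.05 stood 19 of the 58, as did 4055 of the 12388 tested genes. Sptb was at 116, 180 and 152 CPM, against 60.9, 21.5 and 40.0 CPM in untreated (log2 fold change 1.88). Xk (1.92) and Cat (1.06), which encodes catalase, were also among them. The EMPA + PFD libraries lay above all untreated libraries for Sptb, Xk and Cat. In either direction, 37.4% of all tested genes did not overlap between these groups. The count of calls was 9 without untreated replicate 1, 7 without EMPA + PFD replicate 1, 2 without EMPA + PFD replicate 2 and 0 in a fit to these groups alone. Cardiomyocyte genes were also higher, with summed levels of 71045, 95360 and 79507 CPM against 72257, 19968 and 62495 CPM in untreated, and 1 of 8 called, and their part was not tested.

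Other cell types were followed by their own lists. Over all tested genes, 8.69% were called in HFpEF against control 5w, 14.7% between the controls and 12.0% in the difference between the weeks. In EMPA + PFD against untreated 3.82% were called, and in untreated against control 9w 0.912%. Of 11 platelet genes 4 were tested, and 3, Gp9, Treml1 and Gp1ba, rose in HFpEF against control 5w. These had 0 to 2, 6 to 11 and 3 to 5 counts in control 5w and 7 to 26, 21 to 63 and 10 to 21 in HFpEF. Pf4, the most abundant gene, was not called. The summed levels, 98.8, 27.4 and 41.6 CPM against 16.9, 29.4 and 21.7 CPM, overlapped. In HFpEF Pf4 averaged 50.5 CPM of a summed 56.0 CPM. The same list had 3 negative called values in the difference between the weeks: Gp9, Treml1 (−3.65) and Gp1ba (−1.89). Of 8 macrophage genes, led by Lyz2, 5 were lower in control 9w than in control 5w, and of 9 lymphocyte genes, led by Cd4, 3 of the 7 tested rose in HFpEF. Of 6 endothelial genes, led by Vwf, 2 rose in HFpEF and 4 in control 9w against control 5w, and 2 had negative called values in the difference between the weeks. Egfl7, an endothelial gene, was lower in EMPA + PFD than in untreated hearts (−1.08), and Cd3e, a T cell gene, was higher in untreated hearts than in control 9w (2.50). In control 9w against control 5w, where Tal1 and Epor rose, 3 of the 4 tested platelet genes rose too. Their part in the values of the hemoglobin genes was not tested.

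Promoter sequences are shown because the β globin genes and Alas2 varied together. RefSeq promoters in the GRCr8 build were matched by symbol for 5 of the 6 genes, all but Slc4a1. Shown are the 150 bases before the gene start, 5′ to 3′ on the strand of the gene, with capitals marking the motifs found on either strand. The GATA motif was searched as AGATAA, by the spelling TGATAA, by the spelling AGATAG and by the spelling TGATAG. The CACCC motif was searched as the run CACACCC, the CCAAT box by those letters, and the TATA motif as the run TATAAA or by the spelling CATAAA. No motif match overlapped another. The windows are Hba-a1 at chr10:15842581-15842730 on the minus strand, Hbb at chr1:167663722-167663871, Hbb-b1 at chr1:167643521-167643670 and Hbb-bs at chr1:167631631-167631780, all on the minus strand, and Alas2 at chrX:22895300-22895449 on the plus strand.
Hba-a1: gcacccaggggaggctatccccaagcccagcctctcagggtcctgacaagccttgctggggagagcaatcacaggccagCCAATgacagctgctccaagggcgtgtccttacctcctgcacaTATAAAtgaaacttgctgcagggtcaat
Hbb: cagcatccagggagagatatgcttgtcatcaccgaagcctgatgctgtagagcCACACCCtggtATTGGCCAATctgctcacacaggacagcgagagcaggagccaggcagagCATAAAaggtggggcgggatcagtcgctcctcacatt
Hbb-b1: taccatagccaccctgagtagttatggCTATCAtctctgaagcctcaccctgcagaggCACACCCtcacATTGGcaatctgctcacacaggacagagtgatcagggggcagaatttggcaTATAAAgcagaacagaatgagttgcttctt
Hbb-bs: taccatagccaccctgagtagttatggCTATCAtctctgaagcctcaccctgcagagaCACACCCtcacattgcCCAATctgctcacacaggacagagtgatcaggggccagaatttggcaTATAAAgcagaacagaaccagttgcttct
Alas2: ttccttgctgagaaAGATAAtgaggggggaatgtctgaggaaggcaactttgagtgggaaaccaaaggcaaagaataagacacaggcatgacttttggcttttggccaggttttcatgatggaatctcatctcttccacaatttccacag

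The GATA motif, bound by the erythroid factor Gata1 and by other GATA factors, was found in Hbb-b1, Hbb-bs and Alas2, and in 16.6% of all 33469 promoters of that length. The CACCC motif was found in the 3 β genes and in 3.9% of promoters, the CCAAT box in the 4 hemoglobin genes and in 23.5%, and a TATA motif in the 4 hemoglobin genes and in 13.6%. The CACCC motif, the CCAAT box and a TATA motif stood together in 36 promoters, 0.108% of all, among them Hbb, Hbb-b1, Hbb-bs and Hbbl1. Hbb-b1 and Hbb-bs were identical at 95.4% of aligned bases, and Hbbl1 and Hbb-bs at 94.8%, so that these promoters are not independent examples. A match is a description of the sequence and not a measured binding site.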

How the data were processed

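The authors trimmed reads with Trim Galore, checked them with FastQC, used HISAT2 for alignment to rn6 and HTSeq for counting, and deposited the counts per gene. These counts were used as they are. A model of all 7 groups was fitted in edgeR 4.0.16 (R 4.3.3), with TMM scaling, edgeR's expression filter and the quasi-likelihood test, and p values were adjusted by Benjamini-Hochberg over all 12388 tested genes. A gene was called at an adjusted p under 0.05 and at least a 2-fold difference. DESeq2 1.42.0 was the other test, and limma 3.58.1 was loaded by edgeR. Total counts ran from 7430539 to 13017754 per library. Shares have exact Clopper-Pearson 95% intervals. Likeness is Pearson's r of log2 CPM with a prior count of 2.

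The 6 genes and the gene lists were chosen with earlier results of these data known. Named beyond the 6 were the most abundant gene of each list, up to 4 of its called genes per comparison with the largest absolute log2 fold change, and the 5 genes most like summed hemoglobin, Slc4a1 and Alas2. Neighbours of Slc4a1, the neutrophil genes Mpo and Np4, and Hba1, Hba-a2 and Ahsp were named after their values were seen. Some called genes of the lists are counted but not reported here by value. Groups of lists were other globin genes, heme synthesis, membrane and skeleton, transcription and receptors, enzymes and maturation, clearance, and markers of neutrophils, platelets, lymphocytes, macrophages, cardiomyocytes and endothelium. The code was tested on simulated data.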

Additional observations from a re-analysis of the deposited data

Results flagged for a closer look

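For 5 of the 6 genes, the difference between diseased and control hearts was past the threshold of a test between the time points in the same model. The same held for 12.0% of all tested genes. At week 9 (untreated against control 9w) minus week 5 (HFpEF against control 5w), the log2 value was −5.28 for Hba-a1, −3.29 for Hbb, −4.12 for Hbb-b1, −4.38 for Hbb-bs and −3.57 for Alas2. The comparison was added after the data were seen and uses the untreated libraries whose low values entered the choice of the genes, which favoured negative values, so that the test is no independent support and the values are a description. Why the weeks differ was not tested.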

How the results depend on the processing

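Under other settings the 6 genes had 564 fold changes outside EMPA and EMPA + PFD against untreated. Of these, 492 kept their direction and side of the threshold, 50 lost a call, 14 gained a call and 8 changed sign. The 564 hold 125 values of the difference between the weeks, a description that the choice of the genes favoured. All 125 kept their direction and side, and nothing is read from that. Of 172 in EMPA and EMPA + PFD against untreated, also given as description, 12 changed sign. All 12 were in EMPA + PFD against untreated and for the hemoglobin genes and Alas2. Leaving out each library in turn gave 0 to 6 called genes for untreated against HFpEF and 0 to 3 for untreated against control 9w. It gave 0 to 1 for control 9w against control 5w, 1 for HFpEF against control 5w and 0 for PFD against untreated. For the difference between the weeks it gave 5, and nothing is read from that count. For the 58 other red cell genes it gave 0 to 4 calls for EMPA and 2 to 9 for EMPA + PFD against untreated. A group left with 1 library was assumed to vary like the other groups.

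With the replicate number as a replicate block, 0 genes were called for untreated against HFpEF and 0 for untreated against control 9w. Hba-a1 was then at a log2 fold change of −4.10 in the former and Hbb-bs at −3.09 in the latter. Same-number libraries had correlations of −0.53 to 0.35, and only EMPA against untreated, with 2 pairs at 0.29 and 0.24, had all its pairs over 0.1. In fits to the groups compared alone the counts were 0 for HFpEF against control 5w, 1 for control 9w against control 5w, 0 for untreated against HFpEF, 5 for untreated against control 9w and 0 other red cell genes for EMPA + PFD. DESeq2 called 2 for HFpEF against control 5w, 1 between controls, 6 for untreated against HFpEF and 6 for untreated against control 9w, and 5 and 8 other red cell genes for EMPA and EMPA + PFD. Upper quartile scaling called 1 between controls and 6 for untreated against HFpEF, and the adjusted p alone 7 other red cell genes for EMPA + PFD.

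Signs turned for Slc4a1 in HFpEF against control 5w (−1.04 to 0.10 with each library left out, 0.05 without HFpEF replicate 2), and between controls for Hbb (−0.18 to 0.17, −0.15 without control 9w replicate 2) and Alas2 (−0.25 to 0.44, −0.00435 without control 9w replicate 2). In EMPA + PFD against untreated they turned for Hba-a1 (−0.79 to 0.25), Hbb (−0.64 to 0.45), Hbb-b1 (−0.49 to 0.51), Hbb-bs (−0.27 to 0.96) and Alas2 (−0.31 to 0.93), each range with every library left out in turn. Chosen after seeing the data, HFpEF replicate 2 alone gave −0.12 for Hbb and −0.26 for Alas2 against control 5w, with Hba-a1 at 2.09. Leaving out both libraries lowest in cardiomyocyte genes, also chosen after seeing the data, gave 2 calls for untreated against HFpEF. In EMPA + PFD against untreated it gave −0.08 for Hbb and −0.09 for Hbb-b1. With LOC100134871 counted as hemoglobin, also chosen after seeing the data, the mean share was 0.233% in control 9w, 0.0359% in untreated and 0.0995% in PFD, against 0.167%, 0.0255% and 0.0746%. The cause was not tested. Requiring 10 counts in every library removed Slc4a1, so that 5 of the 6 genes were tested there. The alternative without mitochondrially encoded genes in the denominator was not run, as no such symbol was found, and the adjusted p alone changes no fold change. Few libraries per group and 9 to 29 Slc4a1 counts in untreated limit the precision.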

Other observations

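Slc4a1 was lower in PFD replicate 1, at 4.82 CPM, than in replicate 2, at 20.3 CPM, while Hbb was at 651 and 776 CPM there. The symbol Hba1 had 118 of its 120 counts in HFpEF replicate 2.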
